A study of Mus musculus with 8 samples.

Results

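Bone morphogenetic proteins (BMPs) and the proteins that receive, carry and oppose their signal were followed in the outer medullary collecting duct of mice fed a high-salt or a normal-salt diet. The set consists of 10 genes chosen by symbol from the 55291 symbols of the deposited tables: the ligands Bmp2, Bmp4 and Bmp7, the antagonist Grem1, the receptors Bmpr1a and Bmpr2, and the SMAD genes Smad1, Smad5, Smad6 and Smad7. All 10 were found, and all 10 are among the 13401 genes that passed the filter on low values (4 or more libraries with a CPM of 1 or above). Mice of the inbred strain C57BL/6J had received food with 3% salt (4 libraries, numbered 2, 3, 4 and 6) or with 0.3% salt (4 libraries, numbered 1, 2, 3 and 6) for 3 days. Between 100 and 120 microdissected tubules of 1 mouse went into each library, and the labels used here state no age or sex. Levels are given in CPM, the counts of a gene scaled to a library total of 1 M, and, where genes are compared with each other, in TPM, which also takes transcript length into account.

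BMPs are secreted ligands of the transforming growth factor beta family. They bring together type I and type II receptors, which phosphorylate the receptor SMADs, SMAD1 and SMAD5, and these enter the nucleus with SMAD4 to act on target genes such as the Id genes. SMAD6 and SMAD7 inhibit the pathway and are themselves among its targets, while gremlins bind BMPs outside the cell. In the kidney, BMP7 is known from nephron formation and from collecting duct epithelium, and gremlin 1 from the branching of the ureteric bud, from which the collecting duct descends.

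The libraries held 69.2 to 87.7 M estimated counts under high salt and 64.8 to 94.1 M under normal salt. Principal cell markers summed to between 24716 and 29860 CPM under high salt and between 17066 and 21870 CPM under normal salt. Intercalated cell markers summed to 5403 to 6488 CPM under high salt and 6729 to 7492 CPM under normal salt. Both cell types of the labelled segment were thus present, and neither sum overlapped between the diets. By mean log2 level, 4 of the 8 principal cell markers were higher under high salt and 4 lower (median log2 fold change 0.005). Of the 7 intercalated cell markers, 1 was higher and 6 were lower (median -0.25). Markers of the neighbouring thick ascending limb summed to 100.4 to 2783 CPM under high salt and 615 to 2187 CPM under normal salt. Those of the distal convoluted tubule summed to 209 to 460 CPM under high salt and 171 to 312 CPM under normal salt. Endothelial markers summed to 189 to 300 CPM under high salt and 205 to 318 CPM under normal salt. Podocyte markers summed to 33.0 to 45.1 CPM under high salt and 28.1 to 43.9 CPM under normal salt. Fibroblast and pericyte markers summed to 79.4 to 191 CPM under high salt and 67.8 to 326 CPM under normal salt, and 10 macrophage markers to 7.17 to 20.9 CPM under high salt and 10.5 to 59.1 CPM under normal salt, each with its highest value in normal-salt library 1. That library stood apart, with a median correlation of 0.966 with the others across tested genes, where the other libraries had 0.976 to 0.986. The 8 proximal tubule markers summed to 1.06 to 19.4 CPM under high salt, highest in library 6, and 0.425 to 4.30 CPM under normal salt, and 1 of them, Slc5a12, was at 0 in all 8 libraries. In pooled tubules, fewer cells of a type and less RNA per cell cannot be told apart.

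Start-site sequences are shown for Grem1, whose unadjusted p was the smallest among the members, for Smad6, an inhibitory SMAD that is itself a BMP target, and for Id2, a BMP target that changed with the diet. They run from 250 bases before to 50 bases after the RefSeq transcription start, on the minus strand in all 3 genes (GRCm38.p6, the build of mm10). Grem1 lies at chr2:113758599-113758898, Smad6 at chr9:64022010-64022309 and Id2 at chr12:25096043-25096342. Capitals mark 3 motifs known from SMAD binding, each searched on both strands. They are the palindrome GTCTAGAC, the GC-rich element GGCGCC and the box CAGAC. The marked matches do not overlap.
Grem1: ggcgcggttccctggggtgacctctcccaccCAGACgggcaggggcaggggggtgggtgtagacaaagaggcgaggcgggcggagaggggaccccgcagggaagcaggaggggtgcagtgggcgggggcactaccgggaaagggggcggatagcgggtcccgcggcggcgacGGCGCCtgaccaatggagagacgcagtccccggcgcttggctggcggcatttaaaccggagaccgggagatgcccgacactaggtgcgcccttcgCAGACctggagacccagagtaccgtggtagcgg
Smad6: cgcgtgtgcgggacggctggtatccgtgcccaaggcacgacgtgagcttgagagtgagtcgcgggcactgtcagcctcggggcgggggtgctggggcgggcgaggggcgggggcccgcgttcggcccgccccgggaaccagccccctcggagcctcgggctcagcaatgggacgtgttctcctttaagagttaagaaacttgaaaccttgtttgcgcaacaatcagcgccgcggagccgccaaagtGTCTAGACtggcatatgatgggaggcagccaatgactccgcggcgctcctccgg
Id2: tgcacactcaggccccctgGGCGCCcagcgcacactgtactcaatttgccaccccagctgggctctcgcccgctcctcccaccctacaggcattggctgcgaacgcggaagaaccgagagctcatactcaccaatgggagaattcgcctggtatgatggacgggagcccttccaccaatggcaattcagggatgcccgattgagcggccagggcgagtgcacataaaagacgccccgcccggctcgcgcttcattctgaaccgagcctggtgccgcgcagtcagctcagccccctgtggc
Smad6 holds 1 copy of GTCTAGAC, which begins at position -4 relative to the start, and neither of the other motifs. This motif occurred in 57 of 27025 windows of the same length, 1 per gene symbol (0.211%). Grem1 holds 1 copy of GGCGCC, at position -78, and 2 copies of CAGAC, and Id2 holds 1 copy of GGCGCC, at position -231. GGCGCC was found in 12% of all windows and CAGAC in 49.7%. Windows were used for 7 of the 10 members, and none for Bmp2, Bmp7 and Smad7. Whether those of Bmp2, Bmp7 and Smad7, the other inhibitory SMAD gene, hold GTCTAGAC was not tested. Among the 7 members searched only Smad6 held GTCTAGAC, so this does not single it out among all 10. A match describes the letters only.

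The members fell into an abundant and a scarce group by TPM. Bmpr1a, a type I receptor, led the members by mean in both diets, with 51.2 ± 3.53 TPM under high salt and 49.9 ± 13.5 TPM under normal salt (SD, n = 4 each). Bmp7 followed with 46.1 ± 9.83 TPM under high salt and 47.9 ± 6.64 TPM under normal salt, Smad6 with 35.1 ± 3.09 TPM under high salt and 41.7 ± 5.97 TPM under normal salt and Smad7 with 31.2 ± 2.36 TPM under high salt and 37.0 ± 6.14 TPM under normal salt. The ranges of neighbours among these 4 genes overlapped in both diets. Smad7 lay above Bmpr2, the type II receptor, in all 4 libraries of each diet without overlap. Bmpr2 had 19.2 ± 1.92 TPM under high salt and 18.8 ± 6.18 TPM under normal salt, Smad5 18.3 ± 1.84 TPM under high salt and 16.3 ± 4.28 TPM under normal salt and Smad1 15.5 ± 2.72 TPM under high salt and 15.5 ± 3.83 TPM under normal salt, and the ranges of neighbours among these 3 overlapped as well. The scarce group lay below Smad1 without overlap in both diets. Grem1 had 2.49 ± 1.24 TPM under high salt and 1.03 ± 0.788 TPM under normal salt. Bmp4 had 1.23 ± 1.04 TPM under high salt and 1.55 ± 0.591 TPM under normal salt, and Bmp2 0.655 ± 0.355 TPM under high salt and 0.492 ± 0.287 TPM under normal salt. The ranges of neighbours by mean among these 3 overlapped in each diet. By mean, Grem1 stood above Bmp4 under high salt and below it under normal salt.

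**Figure D1:**
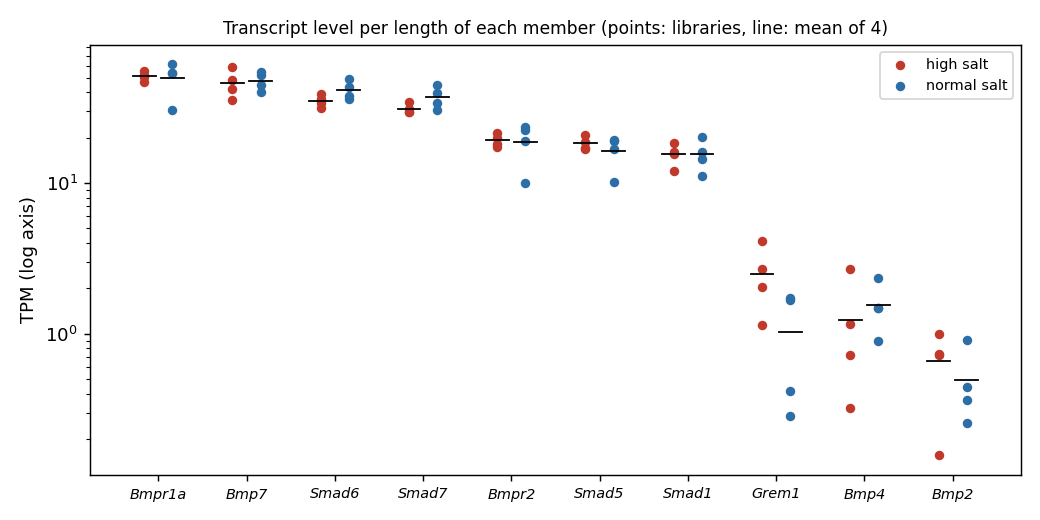
TPM (log axis) of the 10 members in each library, with high salt in red on the left and normal salt in blue on the right of each gene, and the mean of 4 libraries as a line. From Bmpr1a to Smad1 the means lie between 15.5 and 51.2 TPM, and those of Grem1, Bmp4 and Bmp2 between 0.492 and 2.49 TPM.

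The comparison asked which of these transcripts differ between high and normal salt intake. Of the 10 members, limma called 0 at an adjusted p under 0.05, where it called 0.0821% of all 13401 tested genes (11 genes, with 0.0298% of tested genes higher and 0.0522% lower). At an unadjusted p under 0.05 there was 1 member, Grem1, against 10.3% of all tested genes (5.95% higher, 4.37% lower), and limma's voom on estimated counts likewise gave 0 and 1. Grem1 had an unadjusted p of 0.0777 without the filter, and of 0.0568, 0.119 and 0.0793 without high-salt library 2, 4 or 6 and 0.113 and 0.123 without normal-salt library 3 or 6. Mean log2 levels were higher under high salt in 6 members and lower in 4. The median log2 fold change of the members was 0.02, beside 0.01 for all tested genes, with a range of -0.28 to 1.04. None of the 10 members separated the diets without overlap, which 6.4% of tested genes did (3.66% with higher and 2.75% with lower values under high salt). The p-values measure the spread between mice, each represented by 1 library.

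Among the ligands, Bmp7 accounted for nearly all transcripts of the 3. It had 94.2, 112, 83.2 and 135 CPM in high-salt libraries 2, 3, 4 and 6, against 116, 91.4, 120 and 121 CPM in normal-salt libraries 1, 2, 3 and 6. The diets overlapped, with the highest and the lowest value both under high salt. The log2 fold change was -0.09 (SE 0.15, 95% interval -0.43 to 0.24, adjusted p = 0.882). Bmp7 made up 94.9 to 97.1% of the summed TPM of Bmp2, Bmp4 and Bmp7 under high salt and 94.3 to 96.9% under normal salt. The gene spans chr2:172868012-172940321 on the minus strand (GENCODE M21, mm10), and its exons overlap those of no other annotated gene.

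Bmp4, which is also known from kidney stroma and ureter, was measured at 0.308, 0.892, 1.45 and 3.12 CPM under high salt and 3.25, 1.55, 0.945 and 1.57 CPM under normal salt, in the same order of libraries. The diets overlapped, with a coefficient of variation of 84.0% under high salt and 54.3% under normal salt (log2 fold change -0.28, SE 0.35, adjusted p = 0.833). In each diet the 4 libraries had the same order by Bmp4 as by the summed thick ascending limb markers, which were 100.4, 107.7, 468 and 2783 CPM under high salt and 2187, 928, 615 and 1655 CPM under normal salt. This was seen after the values were known, and the part of these cells in the Bmp4 values was not tested. Bmp2, a close relative of Bmp4, had 2.09, 1.54, 1.57 and 0.332 CPM under high salt and 0.848, 0.913, 1.92 and 0.520 CPM under normal salt. Its lowest value also fell under high salt, in library 6, and the diets overlapped (0.19, SE 0.30, adjusted p = 0.87). These levels correspond to 23 to 183 estimated counts of Bmp2 and 27 to 216 of Bmp4 per library.

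Grem1, the gremlin that binds BMP2, BMP4 and BMP7, had the largest difference of the members. It was measured at 4.83, 2.75, 9.95 and 6.42 CPM in high-salt libraries 2, 3, 4 and 6 and at 4.86, 4.11, 1.01 and 0.660 CPM in normal-salt libraries 1, 2, 3 and 6. High-salt libraries 4 and 6 were above every normal-salt library and normal-salt libraries 3 and 6 below every high-salt library, while the others overlapped. The mean was 5.99 ± 3.04 CPM under high salt and 2.66 ± 2.13 CPM under normal salt (SD, n = 4 each), a ratio of 2.25. The log2 fold change of 1.04 (SE 0.44, 95% interval 0.06 to 2.02) did not pass the test over all genes (unadjusted p = 0.0401, adjusted p = 0.452). The summed fibroblast and pericyte markers were 98.7, 191, 79.4 and 168 CPM in the same high-salt libraries and 326, 89.0, 90.0 and 67.8 CPM in the normal-salt libraries. Under high salt the library with the highest Grem1, library 4, had the lowest sum, while under normal salt libraries 1 and 6 were the highest and the lowest in both. The part of these cells in the Grem1 values was not tested. Predicted genes, clones and pseudogenes apart, the 3 tested genes with profiles most like that of Grem1 over the 8 libraries were Mcm8, Pafah1b3 and Dusp14. Their root mean square differences from Grem1 were 0.153, 0.255 and 0.31 between standardised profiles.

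Both receptors had nearly equal means in the diets. The coefficient of variation of Bmpr1a was 4.99% under high salt and 16.5% under normal salt, and that of Bmpr2 8.22% under high salt and 25.1% under normal salt. Bmpr1a had 165, 155, 155 and 172 CPM in the high-salt libraries, against 123, 165, 173 and 184 CPM in the normal-salt libraries (log2 fold change 0.02, SE 0.12, 95% interval -0.25 to 0.29, adjusted p = 0.97). Bmpr2 had 149.9, 124, 131 and 134 CPM under high salt, against 87.7, 155, 140 and 165 CPM under normal salt (0.01, SE 0.17, interval -0.37 to 0.40, adjusted p = 0.987). In both genes the lowest of all 8 values was that of normal-salt library 1, and the remaining libraries of the diets overlapped. Without it the log2 fold changes were -0.10 (adjusted p = 0.562) for Bmpr1a and -0.19 (adjusted p = 0.389) for Bmpr2. The ratio of Bmpr1a to Bmpr2 TPM ranged from 2.56 to 2.76 under high salt and from 2.38 to 3.03 under normal salt. Bmpr1b, another type I receptor, had 61.8 ± 6.28 TPM under high salt and 58.3 ± 17.2 TPM under normal salt, and a log2 fold change of 0.06 (adjusted p = 0.93). The ratio of Bmpr1a to Bmpr1b TPM was 0.733 to 0.976 under high salt and 0.792 to 0.932 under normal salt. Bmpr1b was thus the higher of these type I receptors in every library.

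Smad1 and Smad5 encode the SMADs that BMP receptors phosphorylate. Smad1 was measured at 30.9, 21.2, 28.4 and 29.7 CPM under high salt and 23.4, 28.2, 24.8 and 31.7 CPM under normal salt (log2 fold change 0.02, SE 0.14, interval -0.29 to 0.33, adjusted p = 0.974). Smad5 was measured at 64.8, 74.8, 62.0 and 67.4 CPM under high salt and at 47.4, 62.3, 72.7 and 70.7 CPM under normal salt (0.10, SE 0.13, interval -0.19 to 0.40, adjusted p = 0.839). Normal-salt library 1 was again the lowest for Smad5, and the diets overlapped in both genes.

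The inhibitory SMADs had lower means under high salt, without passing the test. Smad6 had 72.3, 59.9, 68.1 and 64.5 CPM in the high-salt libraries, against 71.4, 78.3, 67.2 and 89.4 CPM in the normal-salt libraries. Its means were 66.2 ± 5.26 CPM under high salt and 76.6 ± 9.70 CPM under normal salt (SD, n = 4 each), with a log2 fold change of -0.20 (SE 0.11, interval -0.44 to 0.03, unadjusted p = 0.084, adjusted p = 0.558). Smad7 had 77.6, 93.0, 79.5 and 82.7 CPM under high salt, against 85.4, 87.1, 103.8 and 113.7 CPM under normal salt, with means of 83.2 ± 6.87 CPM under high salt and 97.5 ± 13.7 CPM under normal salt (-0.22, SE 0.11, interval -0.46 to 0.03, unadjusted p = 0.0743, adjusted p = 0.54). In Smad7 only high-salt library 3 lay above the lowest normal-salt value, and in Smad6 high-salt libraries 2 and 4 did. With predicted genes, clones and pseudogenes left out, the profiles most like that of Smad7 were those of Phkg2, Cep70 and Fam160a2 (root mean square differences 0.265, 0.291 and 0.296).

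The inhibitory SMADs were also set against the receptor SMADs of the same library. The ratio of summed Smad6 and Smad7 to summed Smad1 and Smad5 TPM was 1.92, 2.02, 2.04 and 1.87 under high salt and 3.22, 2.36, 2.26 and 2.36 under normal salt. It did not overlap between the diets, with means of 1.96 ± 0.0823 under high salt and 2.55 ± 0.449 under normal salt (SD, n = 4 each), and normal-salt library 1 was the highest. In CPM the ratios were 1.52 to 1.63 under high salt and 1.75 to 2.22 under normal salt, again without overlap. The ratio was formed after the values were seen and is given as a description, with no test. Each of its 4 genes overlapped between the diets when taken alone. How often ratios of other genes separate the diets was not examined.

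**Figure D2:**
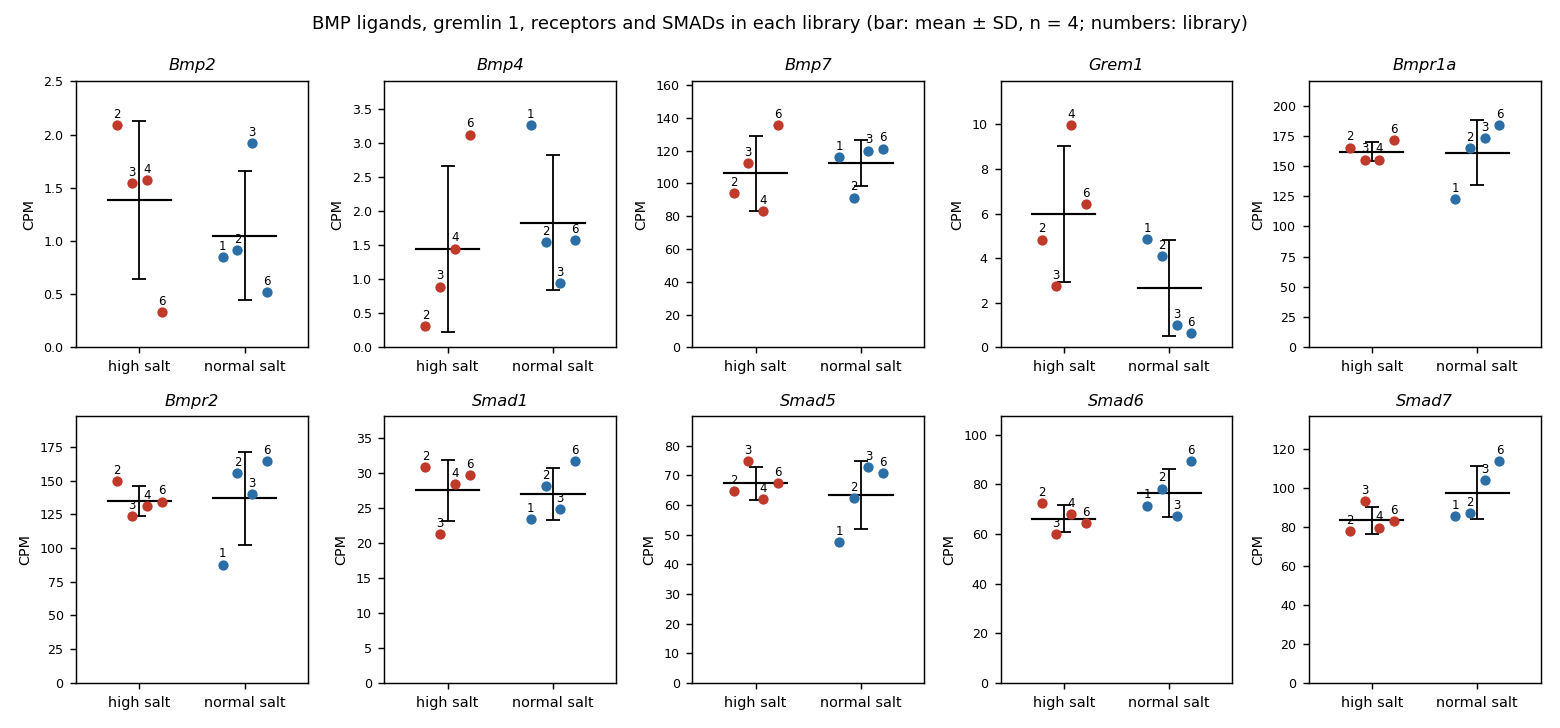
CPM of each member in each library (numbered), with high salt in red and normal salt in blue, and the mean ± SD of 4 libraries in black. The diets overlap in all 10 panels, and Grem1 shows the widest relative gap between means (5.99 CPM under high salt and 2.66 CPM under normal salt).

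**Figure D3:**
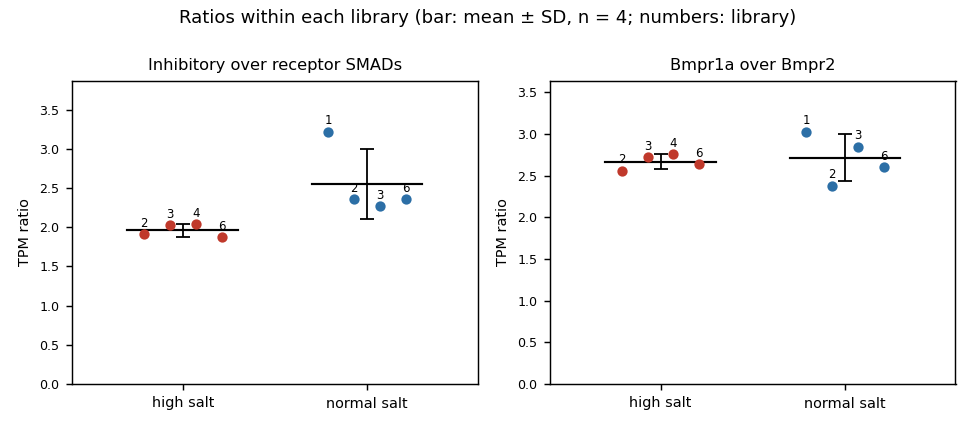
Ratios of TPM within each library (numbered) with the mean ± SD of 4 libraries. The ratio of inhibitory to receptor SMADs lies between 1.87 and 2.04 in the high-salt libraries and between 2.26 and 3.22 in the normal-salt libraries. It was formed after the values were seen and was not tested. The ratios of Bmpr1a to Bmpr2 overlap between the diets.

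The other genes of the pathway were counted by role. Of 9 other antagonists tested (14 listed), limma called 0, with 0 at an unadjusted p under 0.05. The most abundant antagonists by TPM were Twsg1, which binds BMPs together with chordin, with 182 ± 22.4 TPM under high salt and 173 ± 43.4 TPM under normal salt (log2 fold change 0.05, adjusted p = 0.935), and Sostdc1, an inhibitor of BMP and Wnt signalling, with 129.9 ± 29.8 TPM under high salt and 139.7 ± 20.1 TPM under normal salt (-0.17, adjusted p = 0.803).

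Of the 10 other ligands listed, 2 were tested and limma called 0. Bmp3, a ligand known to oppose other BMPs in bone, was measured at 7.01, 7.76, 13.9 and 11.8 CPM under high salt and 3.81, 6.36, 4.33 and 6.42 CPM under normal salt. The diets did not overlap, and the log2 fold change was 0.81 (SE 0.23, interval 0.30 to 1.33, unadjusted p = 0.00506, adjusted p = 0.216). Bmp8a had 7.31 ± 1.80 CPM under high salt and 7.86 ± 1.503 CPM under normal salt (-0.11, adjusted p = 0.896).

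Limma called 0 of 10 other receptors and co-receptors tested, 0 of 8 other SMADs and SMAD regulators and 0 of 13 genes of the transforming growth factor beta and activin branch, and in these lists 0 had an unadjusted p under 0.05. Median log2 fold changes were -0.06, -0.07 and 0.06. Neo1, a receptor of the BMP co-receptors of the RGM family, had 86.2 ± 4.44 CPM under high salt and 100.3 ± 17.8 CPM under normal salt (adjusted p = 0.636). Tob1, a growth inhibitor that binds SMADs, had 258 ± 32.1 CPM under high salt and 276 ± 83.8 CPM under normal salt (adjusted p = 0.943), and the SMAD phosphatase gene Ppm1a 100.1 ± 6.16 CPM under high salt and 105 ± 4.58 CPM under normal salt (adjusted p = 0.8). Tgfbr2, the type II receptor of transforming growth factor beta, had 307 ± 10.9 CPM under high salt and 288 ± 24.5 CPM under normal salt (adjusted p = 0.777), and Smad2, which carries that signal, 71.6 ± 6.60 CPM under high salt and 64.8 ± 7.19 CPM under normal salt (adjusted p = 0.695).

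The BMP targets listed were the group with called genes. Of 6 tested, limma called 2 as lower, Id1 and Id2, and 3 were lower at an unadjusted p under 0.05, beside 0.0522% and 4.37% of all tested genes. The list was chosen with the fall of Id1 and Id2 known and is no independent evidence of its direction. Id1, a helix-loop-helix inhibitor, averaged 20.8 ± 9.31 CPM under high salt and 84.2 ± 7.73 CPM under normal salt (log2 fold change -2.06, SE 0.25, adjusted p = 0.0201), and Id2 124 ± 11.3 CPM under high salt and 241 ± 28.1 CPM under normal salt (-0.95, SE 0.10, adjusted p = 0.0201). Id3 was measured at 178, 207, 135 and 160 CPM under high salt and 311, 285, 262 and 316 CPM under normal salt. Its libraries did not overlap, and the log2 fold change of -0.80 (SE 0.13) had an adjusted p of 0.0529. Id4 had 147.5 ± 28.1 CPM under high salt and 155.3 ± 32.2 CPM under normal salt (-0.07, interval -0.44 to 0.31, adjusted p = 0.931). The remaining tested targets, Msx1 and Hey1, had higher means under high salt, at levels near the filter. Their log2 fold changes were 0.20 (adjusted p = 0.788) and 0.09 (adjusted p = 0.906). The calls depended on single libraries. Id1 and Id2 had adjusted p-values of 0.0517 and 0.0517 without high-salt library 4, 0.0766 and 0.0766 without normal-salt library 3 and 0.0601 and 0.0576 without normal-salt library 6, and Id2 had 0.0723 without high-salt library 3. Id3 reached an adjusted p of 0.0477 without normal-salt library 1. Smad6 and Smad7, which are also BMP targets, had log2 fold changes of -0.20 (adjusted p = 0.558) and -0.22 (adjusted p = 0.54). Neither was called, and the diets overlapped in both.

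**Figure D4:**
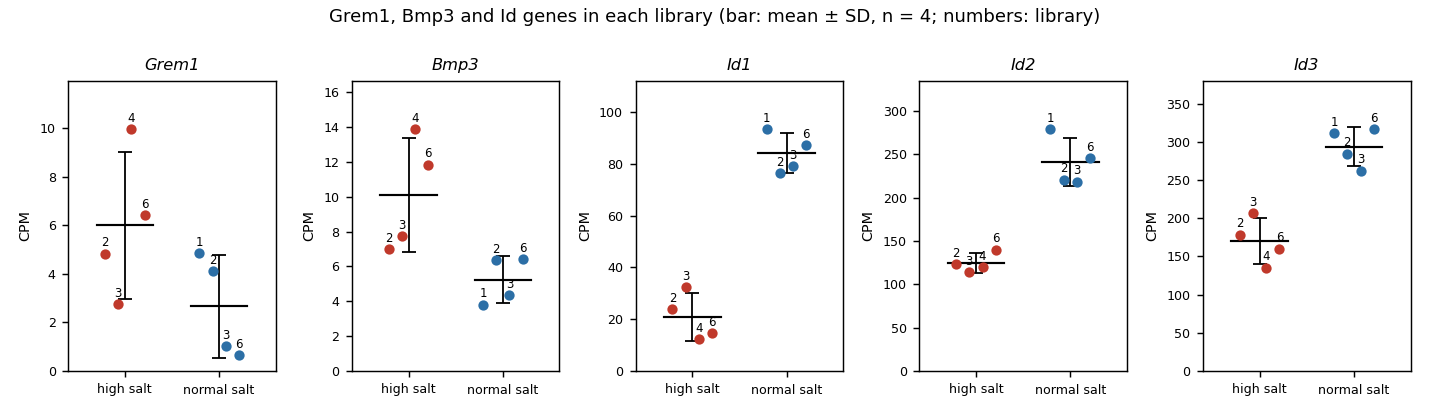
CPM of Grem1, Bmp3, Id1, Id2 and Id3 in each library (numbered) with the mean ± SD of 4 libraries, high salt in red and normal salt in blue. The diets overlap in Grem1. They do not overlap in Bmp3, which has a higher mean under high salt (10.1 CPM) than under normal salt (5.23 CPM), nor in the 3 Id genes, which have lower ones.

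**Figure D5:**
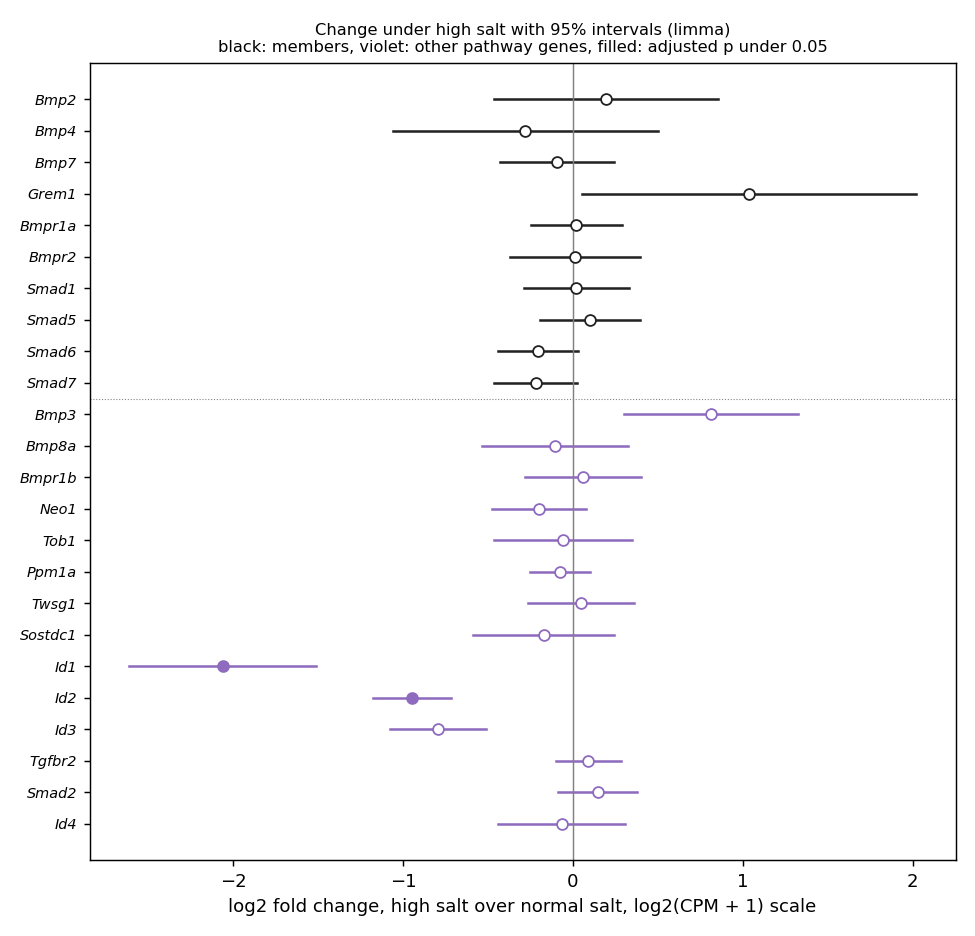
Log2 fold change of high salt over normal salt on the log2(CPM + 1) scale with 95% intervals from limma for the 10 members (black) and 14 other pathway genes (violet), filled where the adjusted p was under 0.05. The filled points are Id1 and Id2, and the intervals of 9 members include 0.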

How the data were processed

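RNA from 8 libraries, 1 mouse each, was sequenced from a stranded mRNA kit, per the labels' protocols. FastQC, Trimmomatic and build mm10 are named in the submitters' processing notes. Aligner, counting program, strand setting and annotation: not given in the sources used here. In the deposited CPM table are log2 values with a floor of -5.29, per the values themselves, and the authors' TPM values sum to 999838 to 999898 per library. Since linear CPM had been planned for, values were taken off the log2 scale, the floor was removed and totals were set to 1 M. Steps between CPM values gave estimated counts. Of the small nonzero ones, for which this was checked, 85.0 to 86.3% were whole within 0.005, so no count model was the main test. Because 1 count was worth 0.0106 to 0.0154 CPM, depth limits the scarce genes most.

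Genes reaching 1 CPM in 4 or more libraries were tested with limma 3.58.1 (R 4.3.3) on log2(CPM + 1) values (lmFit, eBayes with a trend, two-sided, Benjamini-Hochberg over 13401 genes), after a check on simulated data. Fold changes on this scale understate those of scarce genes. Columns show the diet but no title number, so a library's name is its diet and column number.

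The members, gene lists and rules were chosen with earlier results of these data known. Named were all members, the Id genes and, of each other pathway list, genes at an unadjusted p under 0.05 and the 2 most abundant by TPM. Msx1 and Hey1 were added so that all tested BMP targets are given. From the lists and their counts 2 genes were left out and are not reported here. Profile likeness was computed for the 2 members with the smallest p. Predicted genes, clone symbols, pseudogenes, mitochondrially encoded genes and symbols beginning with a digit were left out of it. Start-site windows came from RefSeq (GRCm38.p6, the first listed per gene) and positions from GENCODE M21. Alternatives covered the pseudocount, filter, scaling, TPM, voom, each library left out and a block.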

Additional observations from a re-analysis of the deposited data

Results flagged for a closer look

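Smad2 in high-salt library 3 was flagged because it stood far from the other libraries of its diet, at 81.4 CPM against 67.7 to 69.7 CPM in the other 3. It was the 1 flagged group of 48 examined (24 genes in 2 diets), and chance flags about 1 in 20.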

How the results depend on the processing

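Under all 15 alternatives limma called 0 of the 10 members, among them a pseudocount of 0.5, median-of-ratios scaling, the TPM table and voom. Bmp2, Bmp4, Grem1, Smad6 and Smad7 kept their direction in all 15, and Grem1 had log2 fold changes of 0.73 to 1.54 and adjusted p-values of 0.216 to 0.828. Single libraries moved the scarce ligands: Bmp4 had -0.021 without high-salt library 2, -0.063 without normal-salt library 1, -0.44 without normal-salt library 3 and -0.57 without high-salt library 6, and Bmp2 0.048 without high-salt library 2, 0.064 without normal-salt library 6, 0.38 without normal-salt library 3 and 0.45 without high-salt library 6. Members at an unadjusted p under 0.05 numbered 0 to 2 over the libraries left out. Differences near 0 changed sign when single libraries were left out, none of them called: Bmp7 ranged from -0.22 to 0.017, Bmpr1a from -0.10 to 0.089, Bmpr2 from -0.19 to 0.12, Smad1 from -0.042 to 0.14, Smad5 from -0.028 to 0.17, Bmp8a from -0.20 to 0.059, Bmpr1b from -0.10 to 0.14, Tob1 from -0.21 to 0.13, Twsg1 from -0.079 to 0.13 and Id4 from -0.22 to 0.035. The number of all tested genes called was 0 without a filter (1933 at an unadjusted p under 0.05, with adjusted p-values of 0.228 for Id1 and 0.0996 for Id2) and 0 to 50 over the libraries left out: 0 without high-salt library 4 or normal-salt library 3 (924 and 1231 genes at an unadjusted p under 0.05), 1 without high-salt library 3 or normal-salt library 6, 5 without high-salt library 2 and 50 without normal-salt library 1. The cause was not tested.

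Column numbers 2, 3 and 6 occur in both diets, but nothing says that they pair mice, and deviations of same-numbered libraries correlated at 0.208, 0.287 and 0.00201 across genes. The correlations of differently numbered libraries ranged from -0.275 to 0.296. With a replicate block on these 6 libraries limma called 37 genes, and 23 on the same libraries without the block, an alternative added after seeing the data. Members at an unadjusted p under 0.05 numbered 3 with the block (Grem1 0.0148, Smad6 0.0327, Smad7 0.0207) and 1 without it. Log2 fold changes, equal in both fits, were 0.035 for Bmp7, -0.084 for Bmpr1a, -0.17 for Bmpr2, -0.060 for Smad1, -0.16 for Bmpr1b, -0.079 for Twsg1 and 0.10 for Sostdc1.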

Other observations

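Under the level tested, 12 listed pathway genes had a mean of at least 0.1 CPM, and 2 of them separated the diets without overlap. Both were picked out after their values were seen. Nog, the BMP antagonist noggin, had 0.912, 1.89, 1.41 and 0.824 CPM in high-salt libraries 2, 3, 4 and 6, against 0.679, 0.562, 0.467 and 0.406 CPM in normal-salt libraries 1, 2, 3 and 6. Atoh8, a helix-loop-helix gene known as a BMP target, had 0.194, 0.186, 0.149 and 0.188 CPM under high salt and 0.324, 0.492, 0.648 and 0.418 CPM under normal salt. Of all 4633 genes under the filter at that mean, 1.55% were higher and 1.73% lower without overlap.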
